A study of Mus musculus with 3 samples.

Results

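The 35 forkhead genes studied here encode transcription factors of the Fox family, which share a winged-helix DNA-binding domain, the forkhead. H2AK119ub, histone H2A with ubiquitin on a lysine of its tail, is the mark laid down by Polycomb repressive complex 1 and is known for covering silent developmental genes. Many Fox genes act in 1 germ layer or organ, where they set cell fate, while the Foxk, Foxo and Foxp genes and Foxm1 are in the main more widely expressed. Variant forms of Polycomb repressive complex 1 are known to be drawn to CpG-rich promoters.

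Regions were counted for a forkhead gene when the annotation of the authors named the gene, whatever the location class, or when the region overlapped its mm10 gene bounds. That gave 37 of 7838 regions in replicate 1 and 32 of 8093 in replicate 2. The genes were split into 26 of developmental subfamilies and 9 of the Foxk, Foxo and Foxp subfamilies with Foxm1, called broadly expressed below. That name is the rule of the split, and no expression was measured here. Foxp2 and Foxp3 are known for restricted expression and were kept with their subfamily.

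The chromatin came from tongue epithelium of newborn mice at postnatal day 0 with the genotype given as control, from tongues trimmed of the circumvallate papillae, and cells were sorted by the epithelial surface protein EpCAM. The samples were 2 H2AK119ub replicates, stated to be biological. The input library was not used here. Strain, sex and the number of animals per replicate are unknown. Each list holds coordinates, a location class and gene names but no height, read count or p-value, and depth is unknown. Values below are therefore the presence and the width of regions in 2 samples of 1 group, and no test between conditions could be made.

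Median region width was 4.86 kb in replicate 1 and 4.22 kb in replicate 2, and that of promoter regions was 8.08 and 6.84 kb. Of 6 genes that define the epithelium (Epcam, Krt5, Krt14, Trp63, Cdh1 and Itgb4), 0 had a promoter region in both replicates and 1, Krt5, had one in replicate 2. Of 8 markers of other cell types, 5 had one in both, namely Pdgfra, Twist1, Sox10, Myod1 and Pax7, while Col1a1 had one in replicate 1 alone and Pecam1 and Ptprc had none. Of all protein-coding genes, 8.82% had one in both. Regions overlapped the gene bounds of 1 of the 6, Itgb4, and of 5 of the 8 in both replicates, against 13.3% of all protein-coding genes. These lists hold no RNA, so they cannot show which cell types were in the sort, and the part of other cells in the regions below was not tested.

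Promoter sequence is shown for the developmental gene with the widest promoter region by the mean of the 2 replicates, Foxd1, the one with the narrowest, Foxa3, and, for contrast, 2 Foxo genes. Each line holds the 250 bases before the RefSeq start (GRCm38.p6), 5′ to 3′ on the strand of the gene, with CpG dinucleotides in capitals.
Foxd1 (chr13:98353995-98354244, plus strand): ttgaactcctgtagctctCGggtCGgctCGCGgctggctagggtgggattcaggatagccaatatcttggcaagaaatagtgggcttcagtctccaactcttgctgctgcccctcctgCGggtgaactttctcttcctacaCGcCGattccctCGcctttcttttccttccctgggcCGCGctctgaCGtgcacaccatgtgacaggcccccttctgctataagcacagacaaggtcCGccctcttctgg
Foxa3 (chr7:19023540-19023789, minus strand): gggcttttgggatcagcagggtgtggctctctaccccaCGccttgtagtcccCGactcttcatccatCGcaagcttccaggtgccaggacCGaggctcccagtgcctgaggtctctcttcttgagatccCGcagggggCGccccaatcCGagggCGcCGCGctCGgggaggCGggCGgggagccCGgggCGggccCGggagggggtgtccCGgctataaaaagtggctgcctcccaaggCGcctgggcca
Foxo3 (chr10:42276696-42276945, minus strand): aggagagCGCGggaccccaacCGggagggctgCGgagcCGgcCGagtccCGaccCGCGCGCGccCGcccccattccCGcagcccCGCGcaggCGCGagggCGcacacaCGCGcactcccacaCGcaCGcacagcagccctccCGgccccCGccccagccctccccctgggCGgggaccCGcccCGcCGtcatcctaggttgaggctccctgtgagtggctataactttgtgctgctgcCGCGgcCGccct
Foxo1 (chr3:52268087-52268336, plus strand): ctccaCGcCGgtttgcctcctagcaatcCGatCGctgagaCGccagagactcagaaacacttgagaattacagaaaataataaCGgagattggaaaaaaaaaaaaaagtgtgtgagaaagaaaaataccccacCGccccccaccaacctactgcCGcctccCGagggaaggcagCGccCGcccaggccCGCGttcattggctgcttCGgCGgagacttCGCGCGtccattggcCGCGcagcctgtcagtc
The windows of Foxd1 and Foxa3 lay inside a region in both replicates, that of Foxo3 in replicate 2 alone, and that of Foxo1 in neither. They hold 12 CpGs for Foxd1, 18 for Foxa3, 31 for Foxo3 and 20 for Foxo1, against a median of 10 over 21045 such windows of protein-coding genes, whose 10th and 90th percentiles were 1 and 27. The count was higher in the 2 Foxo windows than in the Foxd1 window, whose gene had the widest promoter region of the 4. These 4 windows were picked by gene, and a link between CpG count and regions was not tested. Windows were at hand for 23 of the 35 genes (65.7%), too few for a summary of base composition over the family, and Foxk1, the first broadly expressed gene without a promoter region, had none.

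H2AK119ub covered the promoters of most developmental forkhead genes and of few broadly expressed ones. A promoter region named 17 of the 26 developmental genes in both replicates and 1 of the 9 broadly expressed genes, Foxo3. Over all 21631 protein-coding genes, 8.82% were named in both. Replicate 1 named 20 developmental genes and replicate 2 named 19, where 12.8% and 12.4% of all genes were named. Of the broadly expressed genes each replicate named 2, and 6 had no promoter region in either. A count of 1 in 9 is near the background share and shows nothing particular to these genes. With so few genes, several of which share a region, the difference between the subfamilies is a description and was given no test. With regions of any location class, 20 of the 26 and 2 of the 9 were named in both replicates, against 15.3% of all genes, and regions overlapped the gene bounds of 18 and 2, against 13.3%. A RefSeq start lay inside a region in both replicates for 10 of 17 developmental and 0 of 6 broadly expressed genes with a listed start, against 5.57% of 17274 genes.

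**Figure D1:**
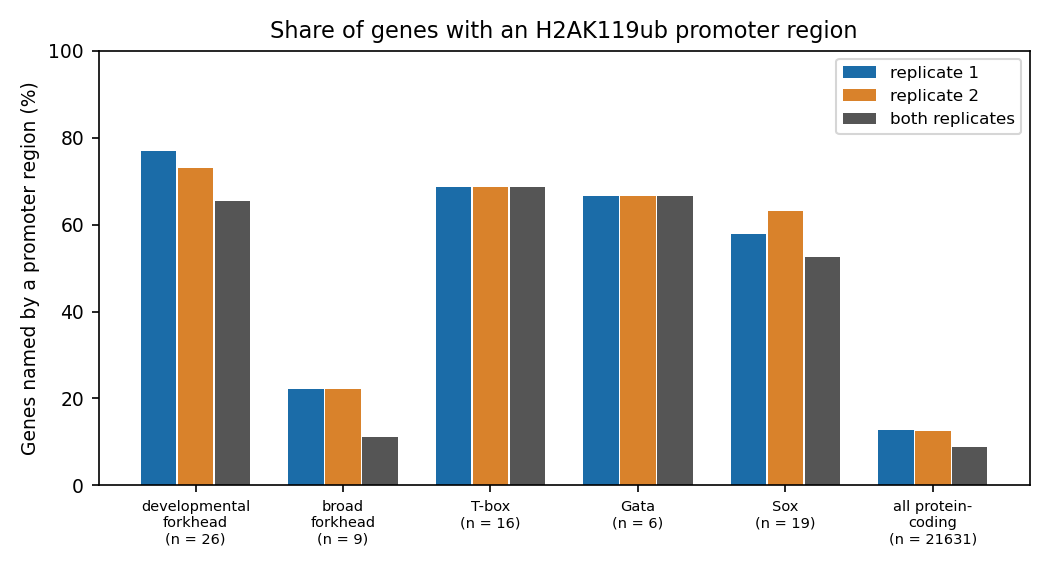
Share of genes (%) that a promoter region names, in replicate 1, replicate 2 and both, for the developmental (n = 26) and broadly expressed (n = 9) forkhead genes, the T-box, Gata and Sox families and all 21631 protein-coding genes. The bar for both replicates stands at 65.4% for developmental forkhead genes, 11.1% for broadly expressed ones and 8.82% for all genes. The T-box, Gata and Sox families are not split into subfamilies. All 35 forkhead genes together, not drawn, had 51.4%.

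The promoter regions at developmental forkhead genes were also wide. Their median width was 21.9 kb in replicate 1 (18 regions) and 21.7 kb in replicate 2 (18 regions), a mean of 21.8 kb ± 0.134 (SD, n = 2), against 8.08 and 6.84 kb for all promoter regions. The narrowest were 6.98 and 4.88 kb, and the widest 39.9 and 32.1 kb, in replicates 1 and 2. Of the 17 developmental genes with a promoter region in both replicates, 10 had one of more than 20 kb in each. Foxc2 and Foxl1, which shared 1 region, are both among these 10. Widths just under 20 kb, 19.7 kb in replicate 1 and 19.8 kb in replicate 2, stood at percentiles 85.2 and 88.9 of all promoter regions. The 2 promoter regions naming a broadly expressed gene measured 0.672 and 2.48 kb in replicate 1, and the 2 in replicate 2 measured 4.21 and 8.60 kb.

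**Figure D2:**
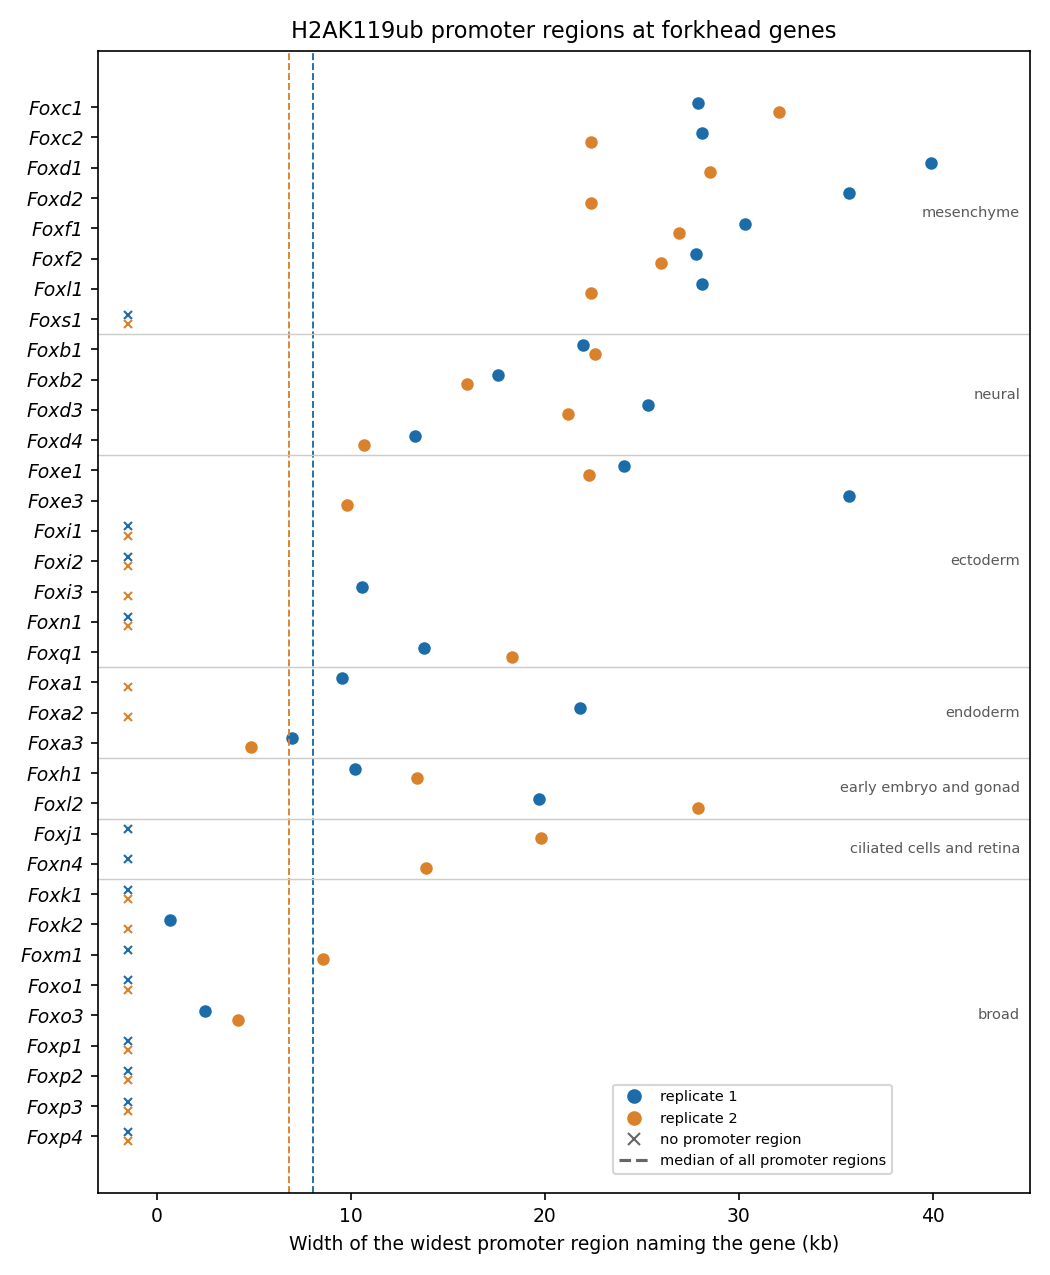
Width in kb of the widest promoter region that names each of the 35 forkhead genes, by group, with 1 point per replicate. Crosses mark a replicate without a promoter region, and dashed lines mark the median of all promoter regions, 8.08 kb in replicate 1 and 6.84 kb in replicate 2. The 7 marked mesenchyme genes sit between 22.4 and 39.9 kb, and Foxo3 lies left of both lines.

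Most developmental forkhead genes are short, many with a single coding exon, and at 15 of the 26 the regions reached past both gene ends. In both replicates 1 region held the whole of these 15 genes, which was so for 1.89% of all protein-coding genes. Since short genes are held more easily, the same was counted over genes of 1 to 6 kb: there it was 15 of 22 developmental forkhead genes, against 6.48% of 4077 genes. In that length class a promoter region named 16 of the 22 in both replicates, against 10.6%. In those 15 the region was 4.65 to 22.0 times as long as the gene, with a median of 8.13 over both replicates. The median covered share of the gene was 100% for the developmental genes and 0% for the broadly expressed genes in each replicate. Broadly expressed genes were longer, with a median of 60.5 kb against 3.24 kb, so equal regions would cover less of them.

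**Figure D3:**
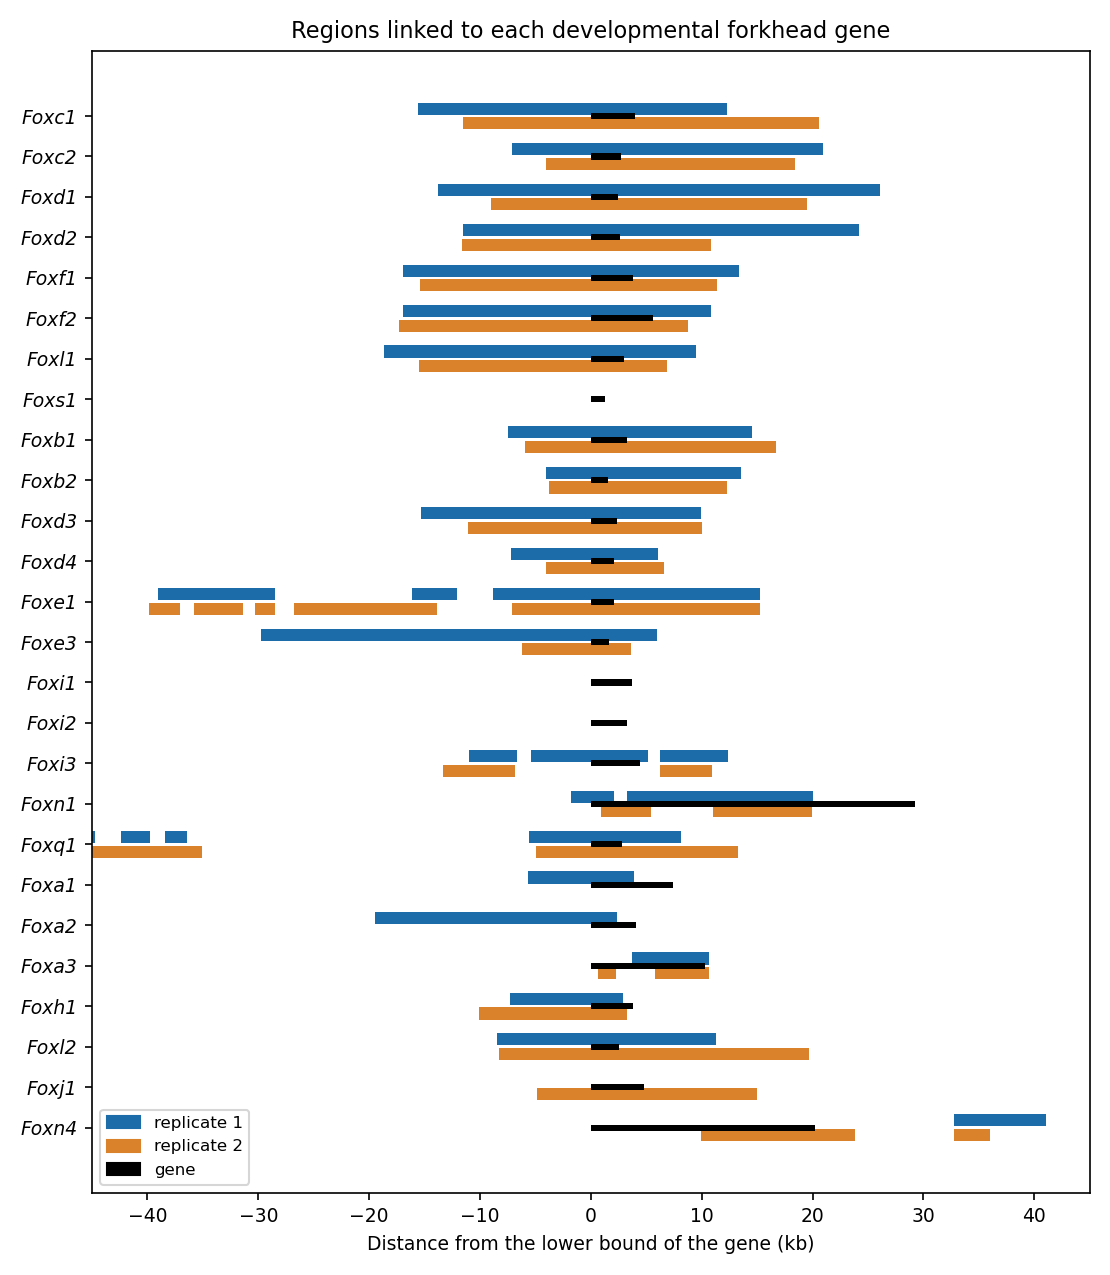
Regions linked to each of the 26 developmental forkhead genes, as distance in kb from the lower bound of the gene in genome orientation, with replicate 1 above, replicate 2 below and the gene in black. The axis ends at 45 kb on each side, which cuts off regions of Foxq1. In 15 genes 1 region extends past both gene ends in each replicate, while Foxi1, Foxi2 and Foxs1 have none.

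Genes of mesenchyme and mesoderm had a promoter region in both replicates in 7 of 8 cases, against 8.82% of all protein-coding genes. These 7 genes lay in 6 promoter regions in each replicate, since Foxc2 and Foxl1 shared 1. Foxd1, a gene of kidney stroma on chromosome 13, had the widest by the mean of the 2 replicates and in replicate 1. Its region was 39.9 kb wide in replicate 1 (98340458 to 98380329) and 28.5 kb wide in replicate 2 (98345233 to 98373733). The replicate 2 region lay wholly inside that of replicate 1, over a gene of 2.46 kb. Foxc1, which acts in eye, skull and vessel development, had regions of 27.9 and 32.1 kb, the latter the widest of replicate 2. Foxf2, a gene of palate and tongue mesenchyme, had regions of 27.8 and 26.0 kb that shared 91.3% of their joint span. Foxs1, the smallest gene of the family here, was the exception, with its nearest region 9.47 and 9.30 kb away and named for Mylk2.

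Foxf1, Foxc2 and Foxl1, which act in gut, lung and vessel mesenchyme, lie within 46.3 kb of chromosome 8. Foxf1 shared a region of 30.3 kb in replicate 1 and 26.9 kb in replicate 2 with Fendrr, a long noncoding RNA gene beside it. Foxc2 and Foxl1 lay in 1 region, 28.1 kb wide in replicate 1 (121109049 to 121137147) and 22.4 kb wide in replicate 2 (121112147 to 121134570). Between these lay regions named for Mthfsd, and no gap within the span exceeded 2.66 kb in replicate 1 or 5.29 kb in replicate 2. Regions covered 90.5% and 82.8% of the span.

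The second group, Foxq1, Foxf2 and Foxc1, spans 252 kb of chromosome 13 and was covered in separate blocks. Regions took up 24.6% and 24.5% of it, with the largest gap, of 154 and 161 kb, between Foxf2 and Foxc1. Each gene lay in a region of its own in both replicates. The other promoter region of the span, 6.45 and 6.88 kb wide, was named for 1700018A04Rik.

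Foxd2, a mesenchyme gene, and Foxe3, a gene of the lens, form the third group on chromosome 4. In replicate 1 a single region of 35.7 kb (114894705 to 114930429) named both and the noncoding gene Foxd2os. In replicate 2 the same stretch was split by a gap of 1.16 kb into regions of 22.4 kb at Foxd2 and 9.83 kb at Foxe3. The 3.63-fold difference in the width at Foxe3, the greatest of the 18 genes marked in both replicates, thus came with this split. With regions up to 2000 bp apart joined, a choice made after seeing the data, the widths were 35.7 and 33.4 kb.

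**Figure D4:**
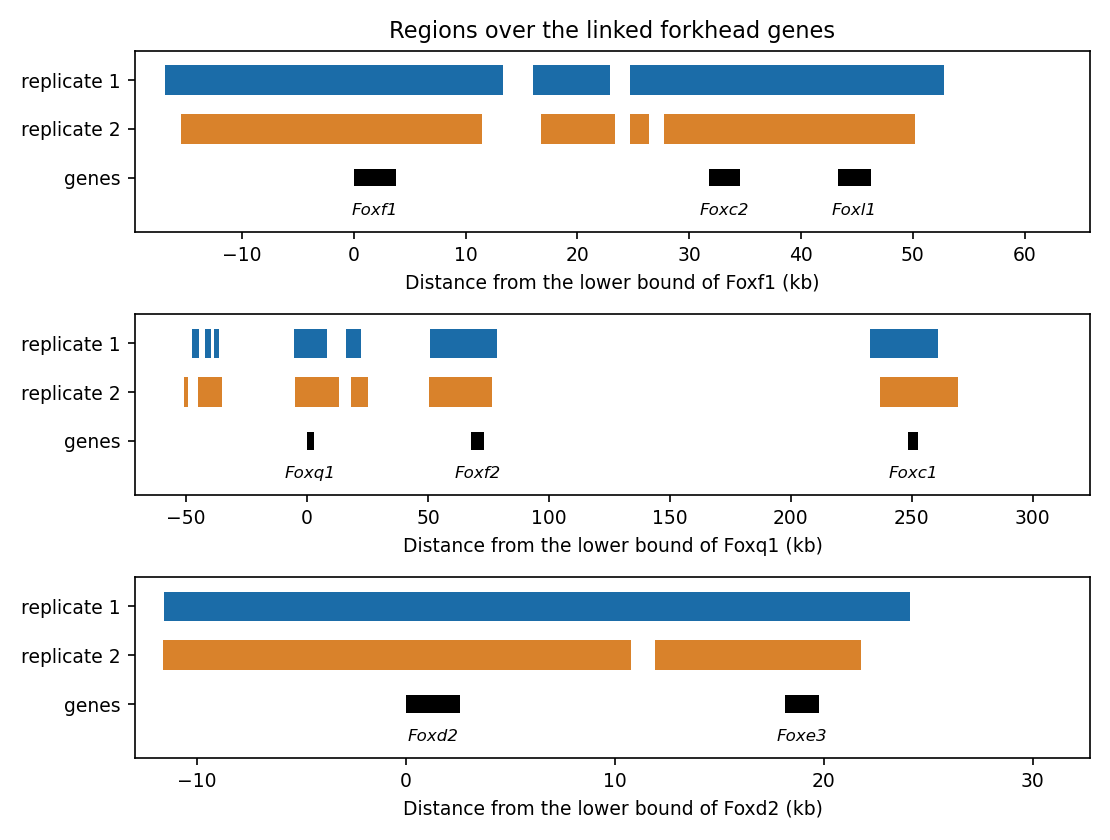
Regions of replicate 1 (top bars) and replicate 2 (middle bars) over 3 groups of neighbouring forkhead genes (black), as distance in kb from the lower bound of the first gene. The Foxf1 group is covered over 90.5% and 82.8% of its span, the Foxq1 group over 24.6% and 24.5%, and the Foxd2 group over 100% and 94.1%.

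All 4 genes of the neural group had a promoter region in both replicates, against 8.82% of all protein-coding genes. Foxd3, a factor of neural crest and of pluripotent cells, had regions of 25.3 and 21.2 kb (99640941 to 99666210 on chromosome 4 in replicate 1). Foxb1, of the hypothalamus and midbrain, had regions of 22.0 and 22.6 kb that also named B230323A14Rik. The edges at Foxb2 moved by 0.332 and 1.25 kb between replicates, for widths of 17.6 and 16.0 kb. Foxd4, of the early neural ectoderm, had the narrowest of the group, 13.3 and 10.7 kb, still wider than the median promoter region of each list.

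The 7 genes placed in the ectoderm group, some of which also act in thyroid, thymus or kidney, were mixed. Foxe1, which acts in thyroid and palate, had regions of 24.1 and 22.3 kb (46334856 to 46358944 on chromosome 4 in replicate 1) with 92.6% of their joint span in common, the highest share of the 18 genes. Further regions named for it lay on 1 side, 2 in replicate 1 and 4 in replicate 2, of up to 10.5 and 12.9 kb. Foxq1, a gene of hair shaft differentiation, had promoter regions of 13.8 and 18.3 kb and distal regions set apart from them, 3 in replicate 1 and 1 of 10.2 kb in replicate 2. Together with Foxe3 these were the 3 genes of the group named by a promoter region in both replicates, where 8.82% of all protein-coding genes were named.

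Foxi3, a factor of ectodermal placodes, teeth and hair, differed between replicates in the middle of its locus. Replicate 1 had a 10.6 kb promoter region over the whole gene, flanked by distal regions of 4.36 and 6.12 kb. Replicate 2 had the flanking regions, of 6.56 and 4.68 kb, and none over the gene, the nearest edge being 1.81 kb away. Foxn1, which drives thymus epithelium and hair differentiation, had no promoter region but 2 gene body regions in each replicate, which covered 64.6% and 45.9% of its 29.2 kb. Foxi1 and Foxi2 had no linked region: the nearest lay 996 and 350 kb from Foxi1, a factor of inner ear and kidney, and 129 kb from Foxi2 in both replicates.

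The endoderm factors Foxa1, Foxa2 and Foxa3, which open chromatin in liver, lung and gut, all had a promoter region in replicate 1 and only Foxa3 had one in replicate 2. Of all protein-coding genes, 12.8% had one in replicate 1, 12.4% in replicate 2 and 8.82% in both. Foxa2 had a region of 21.8 kb in replicate 1 that covered 56.8% of the gene. In replicate 2 the nearest region, of 2.42 kb and called intergenic, lay 7.50 kb from the gene inside the stretch of the replicate 1 region. Foxa1 had a region of 9.54 kb in replicate 1. In replicate 2 a distal region of 4.75 kb named for Ttc6 lay inside that stretch and ended 0.867 kb from the gene. Foxa3 had the narrowest region of the 17 developmental genes marked in both, 6.98 and 4.88 kb, which also named Sympk. At Foxa1 and Foxa2 the 2 samples thus differed in whether a promoter region was called, while both had a region within the stretch. The lists hold no signal by which to weigh this difference.

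Of the remaining developmental genes, Foxl2, the ovary factor, had regions of 19.7 and 27.9 kb shared with the noncoding gene Foxl2os. Foxh1, which acts with Smad proteins in Nodal signalling, lay in regions of 10.2 and 13.4 kb that also named Ppp1r16a, Kifc2 and Cyhr1, so its share cannot be told apart from theirs. Foxj1, the regulator of motile cilia, and Foxn4, a factor of retinal cells, had promoter regions in replicate 2 alone. The Foxj1 region spanned 19.8 kb and held the whole gene, while the nearest region in replicate 1 lay 17.0 kb away at Rnf157. The Foxn4 region spanned 13.9 kb and a distal region named for Foxn4 was found in both replicates, 8.24 and 3.21 kb wide.

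Among the broadly expressed genes, Foxo3, a target of insulin and Akt signalling, had the only promoter region found in both replicates. It ran from 42273052 to 42275535 on chromosome 10 in replicate 1 and from 42273112 to 42277319 in replicate 2, 2.48 and 4.21 kb, narrower than the median promoter region in each. These regions covered 2.62% and 3.78% of the gene and stood at the 10.7th and 28.7th percentile of promoter widths. The shorter, in replicate 1, ended inside the gene without reaching the window printed above. Foxo1 had a gene body region of 3.03 kb and a distal region of 1.66 kb in replicate 1 and none in replicate 2. Foxo6, a brain-expressed Foxo gene outside the 35, had promoter regions of 38.2 kb in replicate 1 and of up to 20.1 kb in replicate 2, so the narrow regions of Foxo1 and Foxo3 do not describe all Foxo genes.

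Of the Foxk genes, which act in metabolism and as repressors, Foxk2 had a 0.672 kb promoter region in replicate 1 alone and Foxk1 had its nearest regions 145 and 73.5 kb away. Foxm1, the factor of the division phase of the cell cycle, lay in a region of 8.60 kb in replicate 2 that also named Rhno1 and Tulp3 and covered 20.9% of the gene. In replicate 1 its nearest region lay 11.0 kb away. The only Foxp gene with a region over it was Foxp1, a factor of lymphoid and lung development, with 3 gene body regions in replicate 1 and 1 in replicate 2. One of these, of 2.29 and 3.17 kb, was found in both, and together they covered 1.24% and 0.530% of its 597 kb.

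Foxp2, known for its role in vocal circuits of the brain, had its nearest regions 873 and 1770 kb away. Foxp3, which defines regulatory T cells and is on X, had its nearest regions 14.1 and 6.39 kb away, and none named it. Foxp4 was named by a distal region of 12.6 kb in replicate 1 alone. Foxp2 and Foxp3, the members of their subfamily known for restricted expression, were without a linked region in both samples, as was the more widely expressed Foxk1.

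The genes of PI3K and Akt signalling, which control Foxo proteins, differed between the replicates in the count with a promoter region. Of 14 such genes, 1 had a promoter region in both, the kinase subunit gene Pik3cb (4.82 and 2.74 kb), which is 7.14% against 8.82% of all genes. Replicate 1 named Pik3cb alone, where 12.8% of all genes were named. Replicate 2 named 5 of the 14, where 12.4% of all genes were named, and the other 4 were Akt1, Irs2, Sgk1 and Sgk3. Regions of any location class named 3 of the 14 in replicate 1, 6 in replicate 2 and 2 in both, against 15.3% of all genes in both. Regions overlapped the gene bounds of 3, 4 and 1, against 13.3% in both. Counts this small show nothing particular to these genes.

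Most regions at developmental forkhead genes were found in both replicates. Of the regions linked to developmental genes, 27 of 28 in replicate 1 (96.4%, exact 95% binomial interval 81.7 to 99.9%) and 26 of 29 in replicate 2 (89.7%, 72.6 to 97.8%) overlapped a region of the other replicate by at least 1 bp. Over all regions the shares were 61.1% and 61.2%, and over all promoter regions 73.7% and 73.4%. Regions linked to broadly expressed genes overlapped in 2 of 9 cases in replicate 1 and 2 of 3 in replicate 2. Regions of developmental genes were wider, with medians of 13.5 and 13.4 kb against 4.86 and 4.22 kb for all regions, and the part of width in the overlap was not tested. The intervals cover counting error only. Under a stricter rule, an overlap of 50% or more of both partners, 64.3% and 62.1% of the regions of developmental genes qualified. Their exact 95% intervals were 44.1 to 81.4% and 42.3 to 79.3%. By this rule 35.4% and 34.3% of all regions qualified, and 49.4% and 49.9% of all promoter regions, the latter within these intervals.

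In the 18 genes marked in both replicates, the share of the joint span that both regions covered had a median of 74.6% and ran from 27.5% at Foxe3 to 92.6% at Foxe1. The wider region was a median of 1.25 times as wide as the narrower. It was that of replicate 1 in 12 genes and that of replicate 2 in 6, and replicate 1 also had the wider regions over its whole list.

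Developmental forkhead genes were set beside 3 other families of developmental transcription factors. In both replicates a promoter region named 11 of 16 T-box genes, 4 of 6 Gata genes and 10 of 19 Sox genes, against 17 of 26 developmental forkhead genes. The share over all protein-coding genes was 8.82%. The T-box, Gata and Sox lists were not split into subfamilies as the forkhead genes were. Over all 35 forkhead genes the count was 18 (51.4%), against 68.8% for T-box, 66.7% for Gata and 52.6% for Sox genes. Median promoter region widths were 23.0 and 23.8 kb for T-box, 33.1 and 22.3 kb for Gata and 13.7 and 12.5 kb for Sox genes. Those of all promoter regions were 8.08 and 6.84 kb. The medians of developmental forkhead genes, 21.9 and 21.7 kb, fell between those of Sox and T-box genes in both replicates. So did those of all 35 forkhead genes, 20.8 and 20.5 kb, and no test of these differences was made.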

How the data were processed

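H2AK119ub ChIP-seq of sorted tongue epithelium was analysed in 2 replicates. For each replicate the authors deposited a list of called regions with mm10 coordinates, 1 of 4 location classes and gene names, per the file headers; these columns are positions and names, not measurements of strength. Per the labels' protocols, 4 ng of DNA went into a library. The submitters' processing notes list Bowtie2 2.3.3 and SAMtools 0.1.19, without their roles. The peak caller and its threshold, how the input was used, the base of the coordinates and the distances that define the classes are not stated in these sources. Neighbouring regions were at least 999 bp apart, which can split or join wide signal.

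Gene bounds came from a RefSeq table of GRCm38.p6, the assembly of mm10, and names were matched by symbol, then by a synonym of 1 gene only. All 35 forkhead genes matched. Width is end minus start. Marked genes are those that a promoter region names in both lists, and the background is the same count over 21631 protein-coding genes. Overlap was counted from 1 bp, and intervals are exact (Clopper-Pearson) at 95%. The functions were tested on simulated regions. All 35 genes were to be named; genes, lists and subfamilies were chosen with earlier results of these data known. The background of genes of 1 to 6 kb and the Foxo1 window were chosen after seeing the data. Some genes of the listed families are not reported here. Analyses used Python 3.11.15, numpy 2.4.6, pandas 2.3.3, scipy 1.17.1 and matplotlib 3.10.9.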

Additional observations from a re-analysis of the deposited data

How the results depend on the processing

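No paired analysis was possible because there was 1 group with 2 replicates and no contrast. Of 53 values computed under alternatives, 34 stayed within 1.5 times the count or within 1 SD. For the 35 genes (18 marked), the count was 29 within 50000 bp of the gene, where the background was 36.7%, and 6 without the widest 5% of regions, where it was 6.72%. For developmental genes (17) it was 5 without the widest 5%, an alternative that removes the wide regions by construction. With a RefSeq start inside a region in both replicates, chosen after seeing the data and open to 23 genes, it was 10, all developmental (10 of 17), and 0 of 6 broadly expressed, against a background of 5.57%. The broadly expressed count (1 of 9) was 3 in either replicate (background 16.4%), 2 with any class (15.3%) and 2 for overlapped bounds (13.3%). It was 2 within 5000 bp (17.2%), 5 within 50000 bp (36.7%) and 0 for regions above the median width (6.31%). Leaving out replicates gave 21 to 22 of all, 19 to 20 developmental and, each time, 2 broadly expressed genes, against backgrounds of 12.4% to 12.8%. The median width at developmental genes (21.8 kb) was 13.4 kb for any class, 22.7 kb for the widest region of each gene and 22.5 kb with regions up to 2000 bp apart joined. The share of forkhead regions that overlapped between replicates (82.9%) was 58.3% at 50% of both. The median covered share of developmental genes (100%) was 91.1% with bounds extended by 5000 bp. Depth is unknown, so a missing region is not shown to be missing signal.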

Other observations

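Of other forkhead genes outside the 35, Foxo6 is described above. Foxn3, a widely expressed repressor, had promoter regions of 0.811 and 0.680 kb in replicates 1 and 2. Foxn2 had a 3.34 kb promoter region in replicate 1 alone. No promoter region named Foxj2, Foxj3, Foxo4, Foxr1 or Foxr2 in either replicate.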
